A study of Mus musculus with 24 samples.

Results

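The genes that write, read and erase DNA methylation were followed in mouse CD4+ T cells at rest and after activation. The family holds 10 members, Uhrf1, Uhrf2, Dnmt1, Dnmt3a, Dnmt3b, Tet1, Tet2, Tet3, Tdg and Mbd2, out of 25030 genes with a count in the deposited table. The members were chosen by their function, and the choice was partly selected on measured values, since the larger Uhrf1 difference on activation in cells with NZB mtDNA was already known from these libraries. Uhrf1 and Dnmt1 are therefore given without p-values in the comparisons between groups. Where they count among the members called by the fit across all genes, that count is a description and supports nothing. The cells came from spleens of conplastic mice, which share the C57BL/6J nucleus and carry either C57BL/6J mtDNA (mtDNA B6, labelled WT) or NZB mtDNA (mtDNA NZB). They were enriched with magnetic beads as CD4+ CD25- cells and either left resting (RES) or activated for 72 h with beads carrying CD3 and CD28 antibodies plus IL-2 (ACT). The labels call the cells TE and give neither age nor sex of the animals per library; by the methods most experiments used young adult males. The 4 groups held 6 libraries each, 24 in all. Enrichment on beads leaves some other spleen cells, and the labels do not tie libraries to animals, so that p-values measure only the spread between libraries.

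Methylated cytosine sits mostly in CpG pairs, where both strands carry the mark. After replication the new strand is unmethylated; UHRF1 binds such half-methylated sites and recruits DNMT1, which copies the mark. DNMT3A and DNMT3B set new marks, the TET enzymes oxidise methylated cytosine, TDG excises the oxidised products, and MBD2 binds methylated CpG as part of a repressor complex. In T cells these enzymes keep lineage genes silent or open as the cells divide and differentiate. UHRF1 and DNMT1 are known to be made mainly by dividing cells, which MKI67 marks throughout the cycle and which PCNA, the sliding clamp of DNA replication, marks in S phase.

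Promoter sequences of 9 of the 10 members were in the RefSeq table of build GRCm38.p6, which gives 250 bases before and 50 bases after each start site. Mbd2 had no entry. Because Uhrf1 and Dnmt1 are the members with the large differences on activation, their promoters were searched on both strands for the 4 spellings of the E2F word, TTTGGCGC, TTTCCCGC, TTTCGCGC and TTTGCCGC. E2F factors switch on S-phase genes. The windows that hold a match are shown with the word in capitals, read along the strand of the gene.
Uhrf1, chr17:56304117-56304146, plus strand: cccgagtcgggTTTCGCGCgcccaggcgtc
Dnmt1, chr9:20952574-20952603, minus strand: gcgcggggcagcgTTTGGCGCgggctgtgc
Dnmt1, chr9:20952824-20952853, minus strand: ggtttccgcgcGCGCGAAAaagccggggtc
Positions refer to the start site of the listed promoter that holds the word, since several members have more than 1. The Uhrf1 word starts 185 bases before it. The first Dnmt1 word starts 34 bases into the transcript, and the second, which reads TTTCGCGC on the other strand, lies 219 bases before the start site. Of 32851 promoters in the table, 2.26% held any of the words, and of 27025 gene symbols 2.6% had a promoter with one. The further listed promoters of Uhrf1 and Dnmt1 held none, and neither did those of the other members, Mki67 and Pcna. The members' promoters were rich in CpG, with a median of 27 CpG pairs in 300 bases over 14 promoters (range 2 to 57) against a median of 7 over the whole table. A match describes the sequence and does not show that a factor binds there.

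Sequencing depth ran from 51409 to 6449395 UMI counts per library, with a median of 3187196. Levels are given as TMM-scaled CPM, in which UMI counts are set relative to library size. The smallest library, resting mtDNA NZB replicate 2, can show little of this family, since its floor of 3 counts is 50.8 CPM, against 0.44 to 4.31 CPM in the other 23. In a supplementary table of the study, group means are met by 21 libraries. The other 3 are replicates 2 and 6 of the resting and replicate 6 of the activated mtDNA NZB cells, and results that rest on those 3 are given with and without them. The 8 T cell markers had counts in every group, with sums of 4083 to 7667 CPM. RNA of other cells was present too. The 10 erythroid markers summed to 888 to 8046 CPM in resting mtDNA B6 libraries and to 321 to 4551 CPM in resting mtDNA NZB libraries, and the 8 granulocyte-precursor markers to 633 to 7941 CPM and 421 to 18441 CPM. No marker of either list was at 0 in a resting group. After activation the erythroid sums were 33.1 to 364 CPM and the granulocyte-precursor sums 8.05 to 165 CPM over both haplotypes. The 7 B cell markers also had counts in all groups (sums of 110 to 1587 CPM). Sums of the 8 myeloid markers at rest were 843 to 2719 CPM in mtDNA B6 and 457 to 2842 CPM in mtDNA NZB libraries. After activation they were 10.8 to 111 CPM. The 2 CD8 T cell markers summed to 52.3 to 111 CPM in resting and 161 to 405 CPM in activated mtDNA B6 libraries. In mtDNA NZB libraries these sums were 16.9 to 142 CPM and 82.0 to 534 CPM. In such bulk samples, fewer cells of a type and less RNA per cell cannot be told apart.

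Uhrf1 (ENSMUSG00000001228; GRCm39, chr17:56610275-56630489, plus strand), the reader of half-methylated DNA, had the largest difference of the tested members on activation. Its lowest, median and highest levels were 19.6, 31.6 and 57.1 CPM in resting mtDNA B6 cells and 102, 119 and 164 CPM after activation. With NZB mtDNA they were 0, 18.4 and 47.8 CPM at rest and 78.6, 170 and 225 CPM after activation. All activated libraries lay above all resting libraries of their haplotype. The fitted log2 difference was 1.81 ± 0.29 (SE) in mtDNA B6 cells, a 3.5-fold higher level. With NZB mtDNA it was 2.81 ± 0.32, a 7.02-fold higher level, and 3.36 ± 0.28 over the 21 libraries. The lone 0 belongs to the smallest library and lies below its floor of 50.8 CPM, so it carries no information on whether Uhrf1 was lower there.

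Dnmt1 (ENSMUSG00000004099; chr9:20817945-20871184, minus strand), the maintenance methyltransferase, moved the same way with smaller differences. Its lowest, median and highest levels in mtDNA B6 cells were 71.5, 104 and 117 CPM at rest and 175, 212 and 288 CPM after activation. Those with NZB mtDNA had 0, 81.4 and 109 CPM at rest and 153, 304 and 358 CPM after activation. Again the resting and activated libraries did not overlap in either haplotype, and the 0 was that of the smallest library. The log2 difference was 1.14 ± 0.22 with B6 mtDNA and 1.69 ± 0.23 with NZB mtDNA (1.85 ± 0.20 over 21 libraries). Since Uhrf1 gained more than Dnmt1, the ratio of Uhrf1 to Dnmt1 within a library changed with state. Its median was 0.313 in resting and 0.597 in activated mtDNA B6 libraries, whose ranges overlapped, and 0.233 and 0.565 in the mtDNA NZB libraries without the smallest one, which did not overlap.

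**Figure D1:**
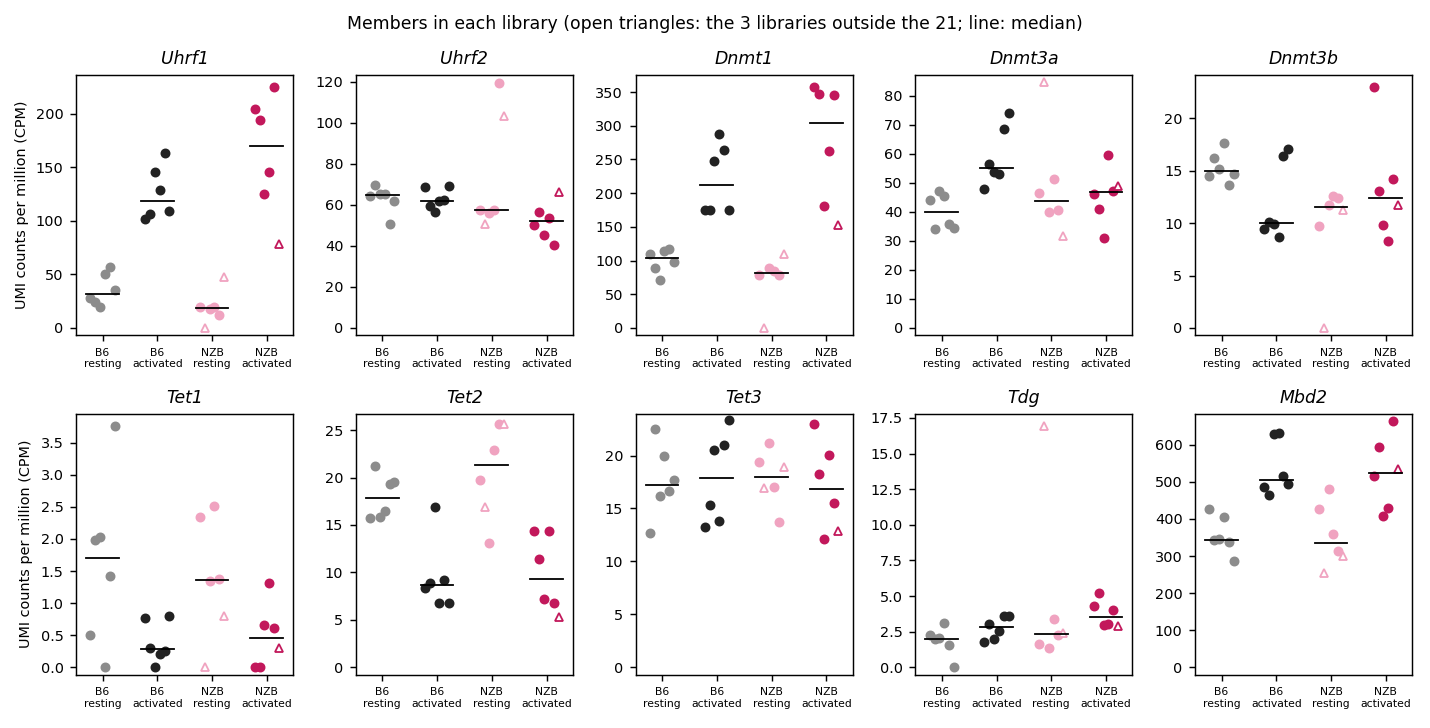
Level of each of the 10 members in each of the 24 libraries, in CPM on a linear axis of its own, by mtDNA haplotype and state, with the group median as a line and the 3 libraries outside the set of 21 as open triangles. Uhrf1 and Dnmt1 do not overlap between resting and activated libraries of a haplotype. Tet2 lies lower after activation apart from 1 mtDNA B6 library at 16.9 CPM and a narrow overlap in mtDNA NZB cells. There, activated replicates 1 and 4, at 14.4 CPM, lie above resting replicate 3, at 13.1 CPM. The smallest library gives the values at 0 for Uhrf1, Dnmt1 and Dnmt3b.

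Uhrf2 (ENSMUSG00000024817; chr19:30007571-30071692, plus strand), the paralog of Uhrf1, did not share its pattern. In mtDNA B6 cells the lowest, median and highest levels were 50.5, 64.7 and 69.5 CPM at rest and 56.5, 61.9 and 69.3 CPM after activation, which overlapped almost wholly. The difference was 0.01 ± 0.16 on the log2 scale (edgeR quasi-likelihood test, adjusted p = 0.984). The mtDNA NZB cells had levels of 50.8, 57.4 and 120 CPM at rest and 40.6, 51.96 and 66.3 CPM after activation. Uhrf2 fell there by 0.56 ± 0.17 (adjusted p = 0.00775), although the groups overlapped. Resting replicate 5 held the highest level, 120 CPM, and without it the difference was -0.37 with an adjusted p of 0.0504. Within the 3 sets of libraries of like reads per UMI, the log2 ratio of the means was -0.07, -0.06 and -0.79 (-0.96 without the smallest library), so that the lower level was seen in the third set. The ratio of Uhrf1 to Uhrf2 within a library therefore changed sides. Its median was 0.5 at rest and 1.94 after activation in mtDNA B6 libraries, and 0.337 and 3.07 in mtDNA NZB libraries, with no overlap between states.

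Of the methyltransferases that set new marks, Dnmt3a (ENSMUSG00000020661; chr12:3856007-3964443, plus strand) rose on activation in mtDNA B6 cells. Its lowest, median and highest levels were 34.1, 39.98 and 47.2 CPM at rest and 47.9, 55.2 and 74.1 CPM after activation. The activated libraries lay just above the resting ones, and the log2 difference was 0.55 ± 0.15 (adjusted p = 0.00407). With NZB mtDNA the levels overlapped, at 31.7, 43.6 and 84.7 CPM at rest and 31.1, 46.7 and 59.7 CPM after activation. The log2 difference there was 0.08 ± 0.16 (adjusted p = 0.701). The difference between these responses was -0.47 ± 0.22 and did not pass the test (adjusted p = 0.334), so that a response particular to mtDNA B6 cells was not shown. Dnmt3b (ENSMUSG00000027478; chr2:153490861-153529650, plus strand) was low in all groups, at 0 to 23.0 CPM. Its log2 difference was -0.36 ± 0.20 in mtDNA B6 cells (adjusted p = 0.144) and 0.15 ± 0.22 in mtDNA NZB cells (adjusted p = 0.713). At rest its mtDNA B6 libraries, at 13.6 to 17.6 CPM, lay above its mtDNA NZB libraries, at 0 to 12.6 CPM, but the difference of -0.42 ± 0.22 did not pass the test (adjusted p = 0.264).

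Among the genes of demethylation, Tet2 (ENSMUSG00000040943; chr3:133169436-133250900, minus strand), which oxidises methylated cytosine, fell on activation in both haplotypes, although in mtDNA B6 cells the call depended on how library sets were treated. In mtDNA B6 cells its lowest, median and highest levels were 15.7, 17.9 and 21.2 CPM at rest and 6.74, 8.64 and 16.9 CPM after activation. Only activated replicate 3, at 16.9 CPM, reached into the resting range. The mtDNA NZB levels were 13.1, 21.3 and 25.7 CPM at rest and 5.28, 9.31 and 14.4 CPM after activation, with a narrow overlap. Tet2 fell by 0.93 ± 0.24 on the log2 scale in mtDNA B6 cells (adjusted p = 0.00234) and by 1.20 ± 0.26 in mtDNA NZB cells (adjusted p = 0.000339). With the set of libraries of like reads per UMI as a term, the mtDNA B6 value was -0.40 ± 0.29 (adjusted p = 0.314) over 24 libraries and -0.52 ± 0.31 (adjusted p = 0.208) over 21, and the call was lost. The mtDNA NZB value was -1.05 ± 0.24 (adjusted p = 0.000864). In the 1 set with both states of mtDNA B6 cells, the activated library lay below the 4 resting ones, with a log2 ratio of means of -0.91. These are counts of 1 to 109 per library, so each level carries a wide counting error.

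Tet3 (ENSMUSG00000034832; chr6:83339355-83436066, minus strand) kept a like range in the 4 groups, from 12.1 to 23.4 CPM. Its log2 differences were 0.02 ± 0.18 in mtDNA B6 cells (adjusted p = 0.964) and -0.14 ± 0.19 in mtDNA NZB cells (adjusted p = 0.547). Tet1 (ENSMUSG00000047146; chr10:62640349-62744775, minus strand) was near the limit of detection, with 74 UMI counts over all 24 libraries and 0 in 5 of them, where a level of up to 3 counts cannot be told from 0. It was removed by the filter on low counts. Without the filter its log2 difference was -1.93 ± 0.63 in mtDNA B6 cells (adjusted p = 0.0211) and -1.70 ± 0.66 in mtDNA NZB cells (adjusted p = 0.053). Tdg (ENSMUSG00000034674; chr10:82465610-82489654, plus strand), the glycosylase that removes oxidised cytosine, had at most 20 counts in a library, and its end overlaps Glt8d2 on the opposite strand. The Tdg log2 differences were 0.57 ± 0.37 in mtDNA B6 cells (adjusted p = 0.215) and 0.64 ± 0.39 in mtDNA NZB cells (adjusted p = 0.17), and changes of such size were not detectable at this depth.

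Mbd2 (ENSMUSG00000024513; chr18:70701260-70762203, plus strand), which binds methylated CpG, rose on activation in both haplotypes, and again the mtDNA B6 call depended on the treatment of library sets. Its lowest, median and highest levels in mtDNA B6 cells were 286, 344 and 427 CPM at rest and 465, 505 and 631 CPM after activation, without overlap. With NZB mtDNA they were 254, 336 and 481 CPM at rest and 408, 525 and 663 CPM after activation, with overlap. Mbd2 rose by 0.59 ± 0.14 on the log2 scale in mtDNA B6 cells (adjusted p = 0.00135) and by 0.52 ± 0.14 in mtDNA NZB cells (adjusted p = 0.0035). Leaving out any single library changed neither call. With the set of libraries of like reads per UMI as a term, the mtDNA B6 call was lost, at 0.36 ± 0.15 (adjusted p = 0.0656) over 24 libraries and 0.34 ± 0.15 (adjusted p = 0.0782) over 21, while mtDNA NZB cells gave 0.42 ± 0.12 (adjusted p = 0.00626). In the 1 set with both states of mtDNA B6 cells, the activated library lay above the 4 resting ones with a log2 ratio of means of 0.44.

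Of the 9 members that passed the filter on low counts, 4 were higher and 1 lower on activation in mtDNA B6 cells. Over the 10566 genes tested, 22.4% were higher and 24.5% lower (adjusted p of at most 0.05). Of the same members, in mtDNA NZB cells, 3 were higher and 2 lower, and of all genes 25.2% were higher and 28.4% lower. The counts of members include Uhrf1 and Dnmt1, whose differences bore on the choice of the family, and nothing is read from them. The members' median log2 difference was 0.55 in mtDNA B6 and 0.15 in mtDNA NZB cells, beside -0.03 and -0.06 over all genes tested. Over 21 libraries the same numbers of members were called in each direction, with backgrounds of 23.8% higher and 26.6% lower in mtDNA B6 cells and 24.5% higher and 28.7% lower in mtDNA NZB cells. Scaling by library size alone moved the median of all genes from -0.03 to 0.10 in mtDNA B6 cells and the calls from 2368 higher and 2590 lower to 3016 higher and 2008 lower. It left 4 members higher and 1 lower in mtDNA B6 cells and 3 higher and 2 lower in mtDNA NZB cells.

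**Figure D2:**
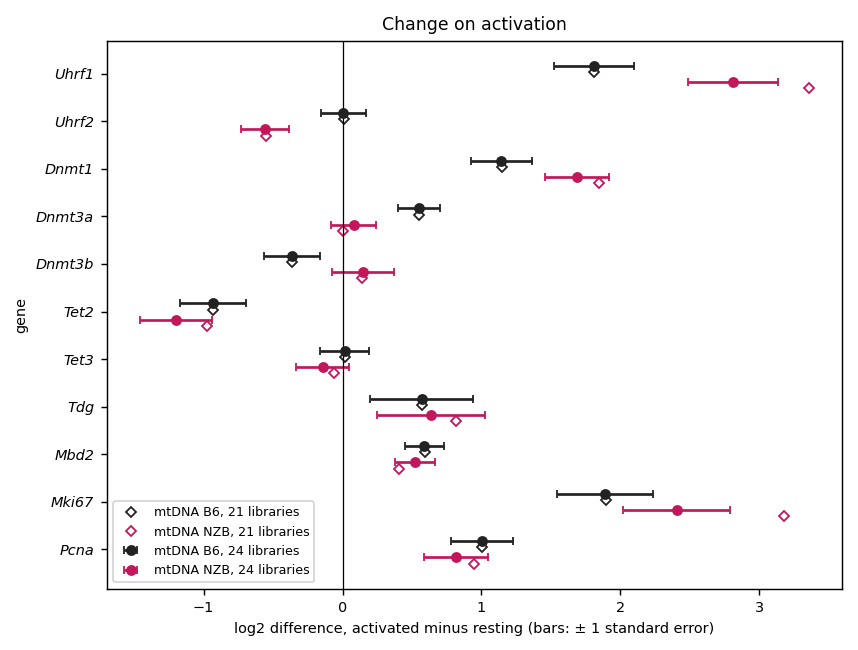
Fitted log2 difference between activated and resting libraries for the 9 tested members and the proliferation genes Mki67 and Pcna, in mtDNA B6 cells (black) and mtDNA NZB cells (red), with 24 libraries as filled circles (bars are ± 1 standard error) and 21 libraries as open diamonds. Uhrf1 and Mki67 lie farthest to the right, and their mtDNA NZB values move from 2.81 to 3.36 and from 2.41 to 3.18 when 3 libraries are left out.

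The libraries fell into 3 sets by the number of reads per UMI (1.88 to 1.96, 2.11 to 2.24 and 2.68 to 2.80), which were spread unevenly over the groups. Of the mtDNA B6 libraries, 5 of the 6 activated ones and none of the resting ones were in the first set. The second set held 4 resting and 1 activated mtDNA B6 library, and within it Uhrf1 was 163.5 CPM in the activated library against 19.6 to 50.5 CPM in the resting ones. Dnmt1 was 264 CPM there against 71.5 to 115 CPM. With the set as a term in the fit, Uhrf1 gave 2.09 ± 0.35 and Dnmt1 gave 1.27 ± 0.28 in mtDNA B6 cells. All 3 sets held both states of mtDNA NZB cells. The log2 ratio of the means of Uhrf1 within them was 3.12, 3.13 and, without the smallest library, 2.63. That of Dnmt1 was 1.47, 1.96 and 1.57. With the 0 of the smallest library the values of the third set were 3.05 and 1.98. The first and second sets each held 1 resting mtDNA NZB library.

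The haplotypes were then compared within each state. At rest no member passed the test over 24 libraries, where the background was 1.9% of genes higher with NZB mtDNA and 0.861% lower. That background depended on the libraries and the fit. It was 0 genes in either direction without resting mtDNA NZB replicate 5, and likewise without resting mtDNA B6 replicate 4. Without resting mtDNA NZB replicate 1 it was 447 genes higher and 125 lower, and with the library set as a term 0 higher and 1 lower. After activation no gene at all passed it (0% higher and 0% lower, with 327 of 10566 genes at an unadjusted p under 0.05 and 0 called by DESeq2). Over 21 libraries 0% were called in either direction there too, with 1068 of 10826 genes at an unadjusted p under 0.05. Uhrf1 differed by -0.65 ± 0.32 on the log2 scale at rest and by 0.35 ± 0.27 after activation. For Dnmt1 these were -0.24 ± 0.23 and 0.30 ± 0.21. The 7 other tested members differed by -0.42 to 0.35 at rest, with adjusted p-values of 0.264 or more.

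Over 21 libraries the resting levels of Uhrf1 stood further apart. The 4 mtDNA NZB libraries lay at 12.4 to 19.6 CPM, and only 1 mtDNA B6 library, at 19.6 CPM, came within their range. The log2 difference was -1.05 ± 0.27 at rest and 0.50 ± 0.21 after activation, so that the responses to activation differed by 1.55 ± 0.34, against 1.00 ± 0.42 over 24 libraries. By the rule applied to all genes, Uhrf1 was the 1 member called in either comparison, beside backgrounds of 2.24% higher and 3.88% lower at rest and of 0.878% higher and 0.166% lower for the difference of response. As this difference led to the choice of the family, the call is a description and no support is drawn from it. With the library set as a term over the 21 libraries, the Uhrf1 difference of response was 1.53 ± 0.40. In that fit no gene was called for the difference of response, Uhrf1 included (0 higher and 0 lower of 10826). The resting Uhrf1 difference of -1.06 ± 0.29 was still called, beside 73 genes higher and 275 lower of 10826. Dnmt1 gave -0.27 ± 0.19 at rest and a difference of response of 0.70 ± 0.25 over the 21 libraries.

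Mki67 (ENSMUSG00000031004; chr7:135291513-135318299, minus strand) showed a like shift. In resting mtDNA NZB cells it was lower by 1.30 ± 0.34 over 21 libraries (adjusted p = 0.0276), and by 0.62 ± 0.38 over 24 (adjusted p = 0.361). With the library set as a term over 21 libraries it was -1.27 ± 0.36 (adjusted p = 0.0553). Of a wider list of 12 proliferation genes, all 12 lay below 0 at rest. Over 21 libraries 7 passed the test, beside 3.88% of all genes called lower. Over 24 libraries 0 passed, beside 0.861%. The median log2 difference of the list over 21 libraries was -0.86, beside 0.01 for all genes. Pcna did not follow, with 0.31 ± 0.22 over 21 libraries (adjusted p = 0.452). Of these resting mtDNA NZB libraries, replicate 5 had 413 CPM of Pcna and the remaining ones 170 to 197 CPM. Resting mtDNA B6 libraries had 144 to 241 CPM. The difference of response was 1.29 ± 0.43 for Mki67 (adjusted p = 0.109) and -0.06 ± 0.31 for Pcna (adjusted p = 0.954) over 21 libraries. For Uhrf2 it was -0.57 ± 0.24 over 24 libraries (adjusted p = 0.281), and for the 5 remaining members it ranged from -0.27 to 0.51 with adjusted p-values of 0.438 or more. Over 24 libraries the difference passed the test for 0% of genes in either direction, with 1512 genes at an unadjusted p under 0.05 and 1 gene called by DESeq2.

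Markers of other spleen cells also differed between the resting groups. Over 21 libraries 10 of 10 erythroid markers were lower in resting mtDNA NZB cells, with a median log2 difference of -3.37, and so were 7 of 8 granulocyte-precursor markers, with a median of -2.47. Over all 24 libraries 1 of the 10 erythroid markers passed the test (median -1.28) and none of the 8 granulocyte-precursor markers (median -0.23). The erythroid sums of the 2 haplotypes did not overlap over the 21 libraries. They were 321 to 479 CPM in mtDNA NZB and 888 to 8046 CPM in mtDNA B6 libraries. Over all 24 libraries these sums overlapped. Resting mtDNA NZB replicate 6, which the 21 leave out, had 4551 CPM of erythroid and 18441 CPM of granulocyte-precursor markers. It also had the highest Uhrf1 (47.8 CPM), Dnmt1 (109 CPM) and Mki67 (65.8 CPM) of its group. Among mtDNA B6 libraries, resting replicate 5 had the highest Uhrf1, 57.1 CPM, with 2664 CPM of erythroid and 7058 CPM of granulocyte-precursor markers. The highest marker sums of the mtDNA B6 group fell in other libraries. Replicate 1 had its highest erythroid sum, 8046 CPM, with Uhrf1 at 27.9 CPM and the highest Mki67 of the group, 58.1 CPM. Replicate 6 had its highest granulocyte-precursor sum, 7941 CPM, with Uhrf1 at 35.4 CPM. Replicate 4 had Uhrf1 at 50.5 CPM with 3469 CPM of erythroid and 1149 CPM of granulocyte-precursor markers. The part of these cells in the resting Uhrf1, Dnmt1 and Mki67 levels, and so in the difference of response, was not tested.

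**Figure D3:**
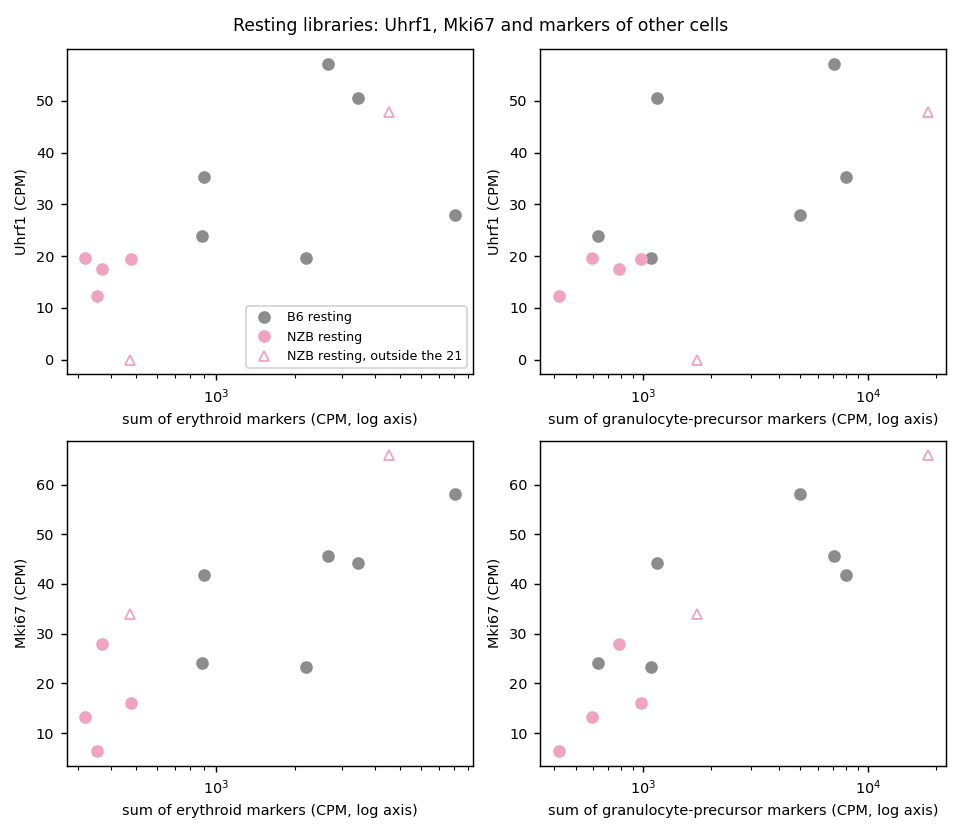
Uhrf1 and Mki67 (CPM, linear axes) in the 12 resting libraries against the summed erythroid and granulocyte-precursor markers (CPM, log axes), for mtDNA B6 (grey) and mtDNA NZB (pink), with the 2 resting libraries outside the set of 21 as open triangles. The 4 filled mtDNA NZB points sit at the low end of the erythroid axis with Uhrf1 at 12.4 to 19.6 CPM, and the mtDNA NZB library with 18441 CPM of granulocyte-precursor markers lies among the highest mtDNA B6 libraries for Uhrf1 and above all of them for Mki67.

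To relate Uhrf1 and Dnmt1 to proliferation apart from state and haplotype, log2 CPM were centred on their group means and correlated across libraries within each state. The smallest library was left out, which gave 11 resting and 12 activated libraries and 8 relations, tested by permutation within haplotype (two-sided, adjusted over the 8). Mki67 itself was higher on activation by 1.89 ± 0.35 in mtDNA B6 and by 2.41 ± 0.38 in mtDNA NZB cells (adjusted p = 7.55e-05 and 1.07e-05). For Pcna (ENSMUSG00000027342; chr2:132091082-132095234, minus strand) the values were 1.00 ± 0.22 and 0.82 ± 0.23 (adjusted p = 0.000646 and 0.00382).

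In activated libraries both genes followed Pcna closely. Pearson's r was 0.853 for Uhrf1 (Spearman's rho 0.86, adjusted permutation p = 0.00332 for r and 0.0109 for rho). For Dnmt1 it was 0.897 (rho 0.874, with adjusted permutation p-values of 0.00332 and 0.0109). Without the 2 libraries farthest from the median of Pcna, r was 0.778 and 0.870, and over 21 libraries 0.832 and 0.861. Within the 7 activated libraries of the first reads-per-UMI set, r was 0.853 for Uhrf1 and 0.947 for Dnmt1. The permutation p-values, adjusted over the relations of that set, were 0.12 and 0.0346, so that Uhrf1 did not pass the test there. The relation with Mki67 was looser, at r = 0.590 for Uhrf1 (rho 0.559, adjusted permutation p = 0.123 and 0.164) and r = 0.723 for Dnmt1 (rho 0.685, adjusted permutation p = 0.0449 and 0.0695). Without activated mtDNA NZB replicates 3 and 6, the 2 libraries farthest from the Mki67 median, these fell to 0.215 and 0.385. Over 21 libraries r was 0.548 and 0.695 (adjusted permutation p = 0.153 and 0.0557). Of those 21, without mtDNA NZB replicates 3 and 5, it was 0.745 and 0.681, so that the values depended on which libraries were kept. With the summed wider list of 12 proliferation genes, r was 0.924 for Uhrf1 and 0.940 for Dnmt1 (adjusted permutation p = 0.00042 for each). Whether the relations with Pcna and Mki67 differ was not tested.

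In resting libraries it was Mki67 that both genes followed over all 11. Pearson's r was 0.779 for Uhrf1 (rho 0.664, adjusted permutation p = 0.0195 and 0.0695) and 0.764 for Dnmt1 (rho 0.836, adjusted permutation p = 0.00347 and 0.011). Without resting mtDNA NZB replicates 5 and 6, the 2 libraries farthest from the Mki67 median, r was 0.483 for Uhrf1 and 0.789 for Dnmt1. The Uhrf1 relation thus depended on which libraries were kept. Over 21 libraries r was 0.571 (adjusted permutation p = 0.103) and 0.671 (adjusted permutation p = 0.0222). With the wider list, r was 0.853 for Uhrf1 and 0.860 for Dnmt1 (adjusted permutation p = 0.00518 and 0.00329). Without the 2 libraries farthest from the median of that list, r was 0.568 and 0.782. With Pcna, r was 0.362 for Uhrf1 (rho 0.345, adjusted permutation p = 0.358 and 0.329) and 0.505 for Dnmt1 (rho 0.627, adjusted permutation p = 0.118 and 0.0695). A single library, resting mtDNA NZB replicate 5, paired a high Pcna level of 413 CPM with the lowest Mki67 (6.42 CPM) and, among libraries other than the smallest, the lowest Uhrf1 (12.4 CPM). Without it, r with Pcna was 0.923 for Uhrf1 and 0.886 for Dnmt1. Each set of like reads per UMI held at most 5 resting libraries besides the smallest, and the resting relations were not computed within sets. The part of the erythroid and granulocyte-precursor RNA in the resting relations was not tested.

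The ratio of Uhrf1 to Mki67 within a library changed little with state. Its median was 0.914 in resting and 0.872 in activated mtDNA B6 libraries, and 1.21 and 1.07 in mtDNA NZB libraries, with overlapping ranges. The ratio of Uhrf1 to Pcna did change, from a median of 0.164 to 0.331 in mtDNA B6 and from 0.108 to 0.371 in mtDNA NZB libraries, without overlap between states. For Dnmt1 it was the ratio to Pcna that changed less, from 0.515 to 0.575 in mtDNA B6 and from 0.437 to 0.614 in mtDNA NZB libraries. Its ratio to Mki67 went from 2.58 to 1.46 and from 4.88 to 1.9. These ratios are descriptions, since Uhrf1 and Dnmt1 were singled out for their activation response.

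**Figure D4:**
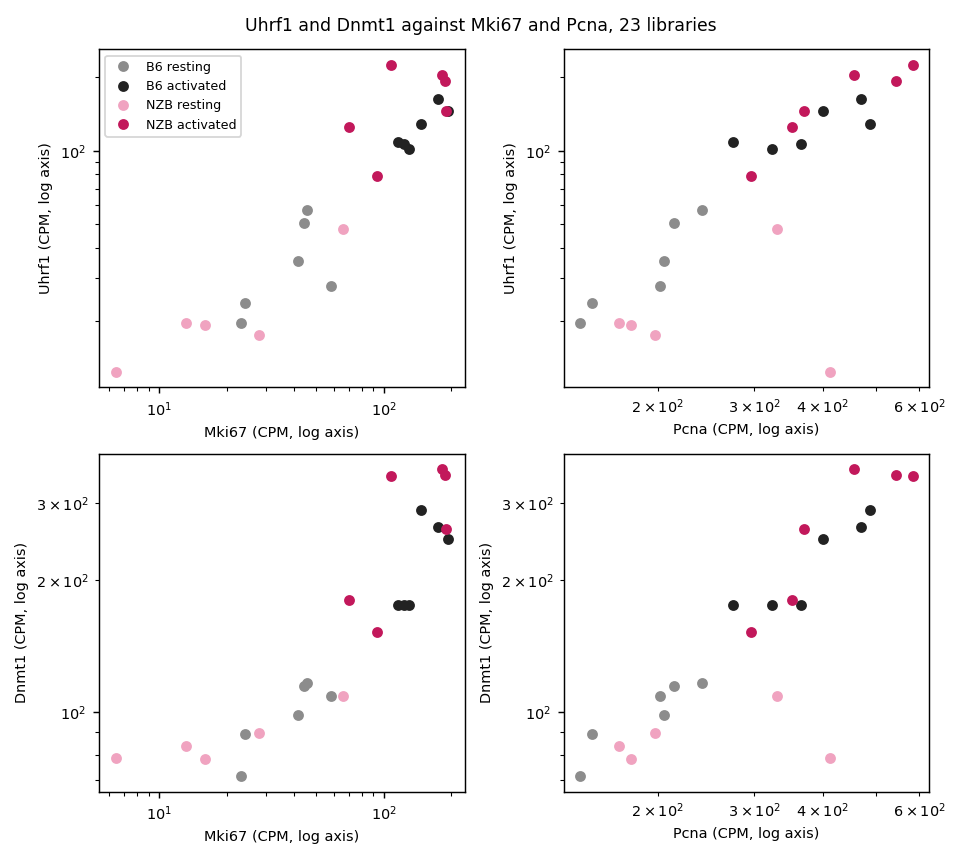
Uhrf1 (top) and Dnmt1 (bottom) against Mki67 (left) and Pcna (right) in 23 libraries, without the smallest, in CPM on log axes, coloured by haplotype and state. Activated libraries line up along Pcna, and 1 resting mtDNA NZB library with 413 CPM of Pcna stands apart at the bottom right of the Uhrf1 panel.

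The genes whose levels were most like Uhrf1 over the 23 libraries, among 8177 genes with a symbol and a group mean of at least 10 CPM, were Mcm5, Spc24, Poc1a, Siva1 and Rrm1, with Pearson correlations of 0.987 to 0.983. Mcm5 is a subunit of the replicative helicase and Rrm1 the large subunit of ribonucleotide reductase. For Dnmt1 they were Srsf9, Cdkn2c, Ckap5, Ranbp1 and Tcf19, with correlations of 0.982 to 0.974. Uhrf1 and Dnmt1 correlated at 0.959, which ranked Uhrf1 11th for Dnmt1 and Dnmt1 107th for Uhrf1. Mki67 ranked 263rd for Uhrf1 at 0.932, and Tet2 correlated at -0.650. All these values run over libraries of 2 states that differ in many genes, and describe the libraries only.

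The wider pathway was described with 40 further genes in 4 lists, of which 34 were tested. On activation of mtDNA B6 cells 5 were called higher and 8 lower, and for mtDNA NZB cells 10 were higher and 12 lower, against the backgrounds given above for all genes. The median log2 difference of the 34 was -0.08 in mtDNA B6 and 0.13 in mtDNA NZB cells. Of the 5 tested genes that help to maintain methylation, 2 rose with B6 mtDNA, while with NZB mtDNA 3 were higher and 1 was lower. Hells, a chromatin remodeller needed for DNA methylation, rose by 2.13 ± 0.33 in mtDNA B6 cells (adjusted p = 8.34e-06) and by 2.20 ± 0.37 in mtDNA NZB cells (adjusted p = 2.43e-05). Cdca7l, related to the HELLS partner CDCA7, rose by 0.87 ± 0.17 and 1.30 ± 0.18 (adjusted p = 0.000148 and 1.76e-06). Of the 5 genes of methyl-donor metabolism, Ahcy, which clears the methyltransferase inhibitor S-adenosylhomocysteine, rose by 0.93 ± 0.16 and 1.34 ± 0.17 (adjusted p = 2.78e-05 and 4.59e-07). Only 3 of the pathway genes that rose in mtDNA B6 cells had a group mean of at least 10 CPM, so that 3 are named.

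A list of other genes grouped as readers was described beside Mbd2. It includes Cxxc1 and Cxxc5, so that not every gene of the list is a reader of methylated CpG. Of 10 tested, none rose and 4 fell with B6 mtDNA, and with NZB mtDNA 1 was higher and 7 were lower, beside 24.5% and 28.4% of all genes lower. Their median log2 difference was -0.27 and -0.45, beside -0.03 and -0.06 over all genes, and nothing particular to the readers is drawn from these counts. Mbd6, a gene with a methyl-CpG-binding-like domain, fell by 0.77 ± 0.12 in mtDNA B6 cells (adjusted p = 1.28e-05) and by 1.01 ± 0.13 in mtDNA NZB cells (adjusted p = 5.42e-07). Of the 14 tested genes of oxidation and repair, 2 were higher and 4 lower with B6 mtDNA. With NZB mtDNA 5 were higher and 3 lower. Of all genes, 22.4% were higher and 24.5% lower with B6 mtDNA, and 25.2% and 28.4% with NZB mtDNA. Nothing particular to this list is drawn from its counts. Gadd45a, a stress-response gene linked to active demethylation, had the largest fall among the named pathway genes, from a mean of 135 to 12.6 CPM in mtDNA B6 cells, or by 3.42 ± 0.18 on the log2 scale (adjusted p = 2.19e-13). With NZB mtDNA Gadd45a fell by 2.98 ± 0.19 (adjusted p = 3.38e-12). Its relative Gadd45b fell by 1.62 ± 0.20 and 1.86 ± 0.21 (adjusted p = 4.46e-07 and 7.22e-08). The DNA glycosylase gene Neil1 fell by 0.97 ± 0.19 and 1.39 ± 0.20 (adjusted p = 0.000169 and 2.65e-06). No gene of the 4 lists passed the test for the difference of response, over 24 or over 21 libraries.

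**Figure D5:**
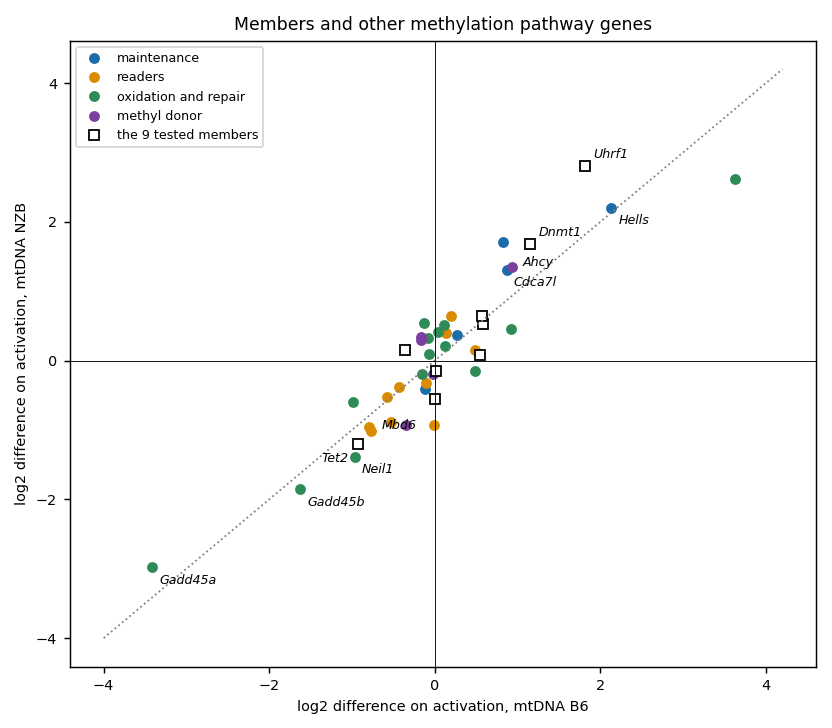
Log2 difference on activation in mtDNA B6 cells (horizontal) and mtDNA NZB cells (vertical) for the 34 tested pathway genes, coloured by list, and for the 9 tested members (open squares), over 24 libraries, with the dotted line where both are equal. Hells, Uhrf1 and Dnmt1 lie at the upper right and Gadd45a and Gadd45b at the lower left.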

How the data were processed

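Poly(A) RNA of 24 libraries was sequenced from the 3′ end with unique molecular identifiers (bulk MARS-seq). By the methods and processing notes, the authors trimmed reads with cutadapt, aligned them with STAR to transcript ends of GRCm39, removed duplicate identifiers and counted with HTSeq. The deposited values are whole-number UMI counts of 55414 gene identifiers. A second deposited table holds counts before that removal and served as an alternative; 1 of its columns belongs to no sample here and was not used. Symbols and positions came from GENCODE vM39. With edgeR 4.0.16 (R 4.3.3), genes with low counts were removed, libraries scaled by TMM, and 1 quasi-likelihood model of the 4 groups was fitted to all 24 libraries, with Benjamini-Hochberg adjustment over 10566 genes. No GEO label names a batch. Correlations used log2 CPM with a prior count of 2 and 100000 permutations (scipy 1.17.1). The procedures were tested on simulated data. Alternatives were 21 libraries, each library left out, DESeq2 1.42.0, other filters and scalings, library set and replicate blocks. Library size scaling, the combined 21-library fits and the within-set values without the smallest library were chosen after seeing the data. The members and lists were chosen with earlier results of these data known. Named pathway genes were the 4 largest rises and falls in mtDNA B6 cells with a group mean of at least 10 CPM. All 60 pairs of libraries of a group differed by more than counting noise, with a chi-square of at least 2.77 times its degrees of freedom. Floors cover counting error only.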

Additional observations from a re-analysis of the deposited data

Results flagged for a closer look

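Within the 48 groups of 6 libraries formed by 10 members, Mki67 and Pcna in the 4 groups, 5 values stood far from the others of their group, where chance flags about 1 group in 20. The smallest library, resting mtDNA NZB replicate 2, gave 4 of them. Dnmt1 was 0 CPM there against 78.1 CPM in the nearest library, and Dnmt3b was 0 CPM against 9.68 CPM. Dnmt3a was 84.7 CPM against 51.2 CPM, and Tdg was 16.9 CPM against 3.36 CPM. One count is worth 16.9 CPM in that library, so these values rest on 0 to 5 counts. The fifth value was Tet2 in activated mtDNA B6 replicate 3, at 16.9 CPM against 9.21 CPM in the next library.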

How the results depend on the processing

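Of the 9 tested members, 5 were called on activation in each haplotype, and the numbers held with DESeq2, with its scaling in edgeR and with library size scaling. Where Tet1 entered, without the filter or in the second table, up to 6 were called. In mtDNA B6 cells the number became 3 with the library set as a term, over 24 and over 21 libraries, and 2 with a log2 difference of at least 1. In mtDNA NZB cells it became 3 with that minimum and 3 with a replicate block by label number. That block leaves 7 residual degrees of freedom over 24 libraries. With the block over 21 libraries the number was 2. Leaving out single libraries gave 5 in mtDNA B6 and 4 to 5 in mtDNA NZB cells. At rest the number between haplotypes went from 0 to 1 over 21 libraries, with or without the set term, and ranged from 0 to 1 over single libraries left out, the 1 without resting mtDNA NZB replicate 6. For the difference of response it went from 0 to 1 over 21 libraries, with or without the label block. The relations past the threshold numbered 5 of 8, then 3 with the smallest library included and 3 over 21 libraries, and 3 to 7 with single libraries left out (3 without resting mtDNA NZB replicate 6, 7 without replicate 5). The cause of these shifts was not tested. With the smallest library Dnmt1 and Mki67 at rest gave r = -0.18. Values near 0, never past the threshold, turned sign as follows. Uhrf2 in mtDNA B6 cells was -0.00031 with 12 libraries, -0.051 with a stricter filter, -0.0012 with a block by title number, and -0.052 to 0.062 with single libraries left out. Tet3 there was -0.040 with the stricter filter and -0.069 to 0.10 with single libraries left out. In mtDNA NZB cells Tet3 was 0.088 in the second table. Dnmt3a there was -0.049 with the set term and -0.043 with the label block, both over 21 libraries, and -0.0099 to 0.18 with single libraries left out. The difference of response of Pcna was 0.25 with that block and -0.29 to 0.044 with single libraries left out. Mki67 after activation was 0.043 with the set term over 21 libraries and -0.22 to 0.034 with single libraries left out. Library size scaling changed the calls in mtDNA NZB cells from 2660 higher and 2998 lower to 3141 and 2457. In 9 pairs a resting and an activated library of the same haplotype carry the same label number. Deviations of these same-numbered libraries correlated at -0.158 to 0.253. Whether the same number means the same animal was not tested. Depth limits Tet1, Tdg and every value of the smallest library.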
